A study of Mus musculus with 3 samples.

Results

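The cells described here were dendritic cells of mouse skin that held transcripts of Mgl2, Cd209a or Cd209d, which encode C-type lectins, together with transcripts of MHC class II. They were chosen from barcodes with at least 800 unique molecular identifiers (UMIs, each one captured transcript), at least 300 detected genes and at most 20% mitochondrial UMIs. A barcode had to hold at least 20 UMIs of H2-Aa, H2-Ab1 and Cd74 together and at least 2 of Mgl2, Cd209a and Cd209d together. It had to hold fewer than 5 UMIs of C1qa, C1qb and C1qc, none of Cd207, fewer than 2 of Cd3d, Cd3e and Cd3g and fewer than 30 of Krt5 and Krt14. In all, 433 of the 23292 barcodes kept from both libraries met these conditions, 185 in the metformin library and 248 in the control library. Levels of these rule genes, and of every gene that marks the cells against others, are given as descriptions.

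The series profiled skin of C57BL/6 mice at 7 postnatal weeks by droplet single-cell RNA sequencing, with 1 library from skin given metformin and 1 from control skin. Metformin is an oral drug for diabetes. Both libraries came from the same strain and age, the dose, route and duration were not given in the sources used here, and no source gave the number of mice behind a library. A further library, labelled Shi-Bi-Man, was not analysed here. With 1 library per agent the difference between agents cannot be told apart from any other difference between the libraries, so no test was made. Every interval is a 95% interval that covers counting error only.

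Dendritic cells take up antigen in tissue, load peptides on MHC class II molecules and carry them through lymph vessels to lymph nodes, where T cells read them. In the skin they are divided into type 1 cells, which carry Xcr1 and Clec9a, type 2 cells, many of which carry the lectin encoded by Mgl2, and Langerhans cells of the epidermis, which carry Cd207. On maturation they raise Ccr7, the receptor that guides them to lymph nodes, together with co-stimulatory molecules. Dermal macrophages lie beside them, hold complement C1q and mostly stay in place.

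The 2 libraries held 12092 barcodes in the metformin library and 12108 in the control library, of which 11738 and 11554 were kept. The dendritic cells held 829910 UMIs in the metformin library and 1175409 in the control library, with a median of 3813 UMIs and 1277 genes per cell against 4465.5 UMIs and 1457 genes. The doublet caller Scrublet marked 12 of the metformin cells (6.49%) and 15 of the control cells (6.05%), against 5.32% and 3.48% of all kept barcodes of the same libraries. Of 41 barcode sequences found in both libraries, 0 belonged to a metformin dendritic cell and 1 to a control dendritic cell.

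The label was checked against genes that the rule did not use. Flt3, the growth factor receptor of dendritic cells, had 47 and 63 UMIs in the metformin and control dendritic cells, and no UMI in barcodes with at least 20 UMIs of C1q and no Cd207 (the C1q macrophages, 35 in the metformin library and 80 in the control library). Folr2, Cd209f and Cd209g, which mark resident macrophages, had 0 UMIs in the dendritic cells of either library, while Folr2 reached 633 and 178 CPM (counts scaled to the same total in each kind of cell and library) in the metformin and control C1q macrophages. Xcr1 had 1 and 0 UMIs, and Clec9a 2 and 0 UMIs. Other genes that the C1q macrophages also held were present in the dendritic cells. Cd163, a scavenger receptor, had 78 and 89 UMIs in 26.5% of metformin and 22.2% of control cells, Adgre1, which encodes F4/80, 107 and 171 UMIs in 40.0% and 41.1%, and Mrc1, the mannose receptor, 191 and 305 UMIs. The monocyte list summed to 12928 CPM in metformin and 12705 CPM in control dendritic cells. The defining markers of neutrophils (S100a8), mast cells (Cpa3) and T cells (Trac) were at 0 UMIs in both libraries, and the lists of these cells summed to 4 and 6 UMIs, 3 and 6 UMIs, and 36 and 66 UMIs. Of the last, 14 and 54 UMIs were of Trbc2, and Trbc1, not in that list, had 41 and 47 UMIs (both encode constant regions of the T cell receptor beta chain). The T cell list also holds Cd3d, Cd3e and Cd3g, which the rule limited, so its low sum was set in part by the rule. Flt3 was detected in only part of the dendritic cells. Among the sub-clusters described below, number 2 had it in 33.3% of metformin and 37.8% of control cells. Number 5 had it in 0% of the cells of either library. That the C1q macrophages held no Flt3 UMI rests on few cells, 35 in the metformin library. As a set, the dendritic cells thus carried a marker not detected in the C1q macrophages, together with genes shared with monocytes and macrophages. The label was not tested for each cell.

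Sequences of class II promoters are shown because these genes define antigen presentation in the cells and because H2-DMb2, one of them, differed between the libraries while its neighbour H2-DMb1 did not reach 1.5-fold. H2-Aa encodes the alpha chain of the class II molecule I-A, and H2-Eb1 the beta chain of I-E. H2-DMb1 and H2-DMb2 encode beta chains of H2-DM, which removes the placeholder peptide from class II molecules so that antigen can be loaded. The 120 bases before each gene's RefSeq start are printed on the gene's strand (GRCm38.p6, RefSeq). The letters GATTGG and their reverse complement CCAATC are in capitals. On the gene's strand GATTGG spells the Y box of class II promoters (the inverted CCAAT box), whereas CCAATC, seen in H2-Eb1, spells CCAAT directly. For H2-DMb2 the window lies inside the gene span given below, which starts further upstream.
H2-Aa (chr17:34287824-34287943, minus strand): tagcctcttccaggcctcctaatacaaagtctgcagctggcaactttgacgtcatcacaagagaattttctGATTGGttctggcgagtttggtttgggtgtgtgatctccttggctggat
H2-Eb1 (chr17:34305747-34305866, plus strand): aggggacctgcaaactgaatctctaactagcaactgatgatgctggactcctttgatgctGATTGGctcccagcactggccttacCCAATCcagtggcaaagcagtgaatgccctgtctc
H2-DMb1 (chr17:34153071-34153190, plus strand): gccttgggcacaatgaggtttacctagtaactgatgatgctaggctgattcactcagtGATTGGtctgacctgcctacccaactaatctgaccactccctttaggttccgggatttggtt
H2-DMb2 (chr17:34145129-34145248, plus strand): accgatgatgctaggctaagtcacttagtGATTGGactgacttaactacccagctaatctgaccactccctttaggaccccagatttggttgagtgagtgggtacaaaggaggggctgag
The letters were found on either strand in 5292 of 32851 RefSeq promoter windows of 300 bases (16.1%). Of 10 class II presentation genes with a window, 7 held them, namely H2-Aa, H2-Eb1, H2-DMa, H2-DMb1, H2-DMb2, H2-Oa and H2-Ob. They were absent from the windows of Ctss, Ifi30 and Lgmn. A match describes the letters in the window and shows no binding.

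The metformin library held a smaller share of these dendritic cells. They made up 1.58% of kept barcodes (Clopper-Pearson interval 1.36 to 1.82) in the metformin library and 2.15% (1.89 to 2.43) in the control library, a difference of -0.57 percentage points (Newcombe interval -0.92 to -0.22). C1q macrophages made up 0.298% and 0.692% of the metformin and control libraries. Langerhans cells (Cd207 of at least 2 UMIs with class II, and no limit on Krt5 and Krt14) made up 1.05% and 1.36%. Within these 3 kinds of cell together the dendritic cells took 53.9% (48.5 to 59.3) in the metformin library and 51.1% (46.6 to 55.7) in the control library. Their share among the antigen-presenting cells thus overlapped between the libraries. Fibroblasts took 18.7% of the metformin library and 35.9% of the control library, so shares of all barcodes also moved with the make-up of the rest of the library.

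Mgl2, at chr11:70130329-70137550 on the plus strand (GRCm38), encodes a galactose-binding lectin also called CD301b. Per cell it had a median of 10.3 UMIs per 10000 in the metformin dendritic cells, with 0 as the lowest and 47.0 as the highest value, and a median of 10.8 in the control dendritic cells, between 0 and 45.0. Over the summed cells it reached 1071 CPM (889 UMIs) in the metformin library and 1194 CPM (1404 UMIs) in the control library, a ratio of 0.897 (0.824 to 0.976). The cells of the 2 libraries covered the same range.

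Cd209a (chr8:3743397-3748984) and Cd209d (chr8:3871824-3878555), both on the minus strand, encode mouse relatives of the lectin DC-SIGN. Cd209a had per-cell medians of 4.45 (0 to 31.4) in metformin and 5.31 (0 to 30.9) in control dendritic cells, and summed levels of 562 CPM and 649 CPM. Cd209d had per-cell medians of 4.67 (0 to 46.7) in metformin and 6.27 (0 to 52.3) in control cells. Its summed level was 687 CPM in the metformin library and 851 CPM in the control library, a ratio of 0.807 (0.727 to 0.896). All 3 lectins that chose the cells were slightly lower in the metformin library, each by less than 1.5-fold. Thinned to 1500 UMIs per cell, which kept 169 metformin and 232 control dendritic cells, Mgl2 had a UMI in 74.6% of metformin and 73.7% of control cells, against 0.0495% and 0.220% of thinned fibroblasts. Cd209d had a UMI in 48.5% and 55.6% of the thinned dendritic cells.

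**Figure D1:**
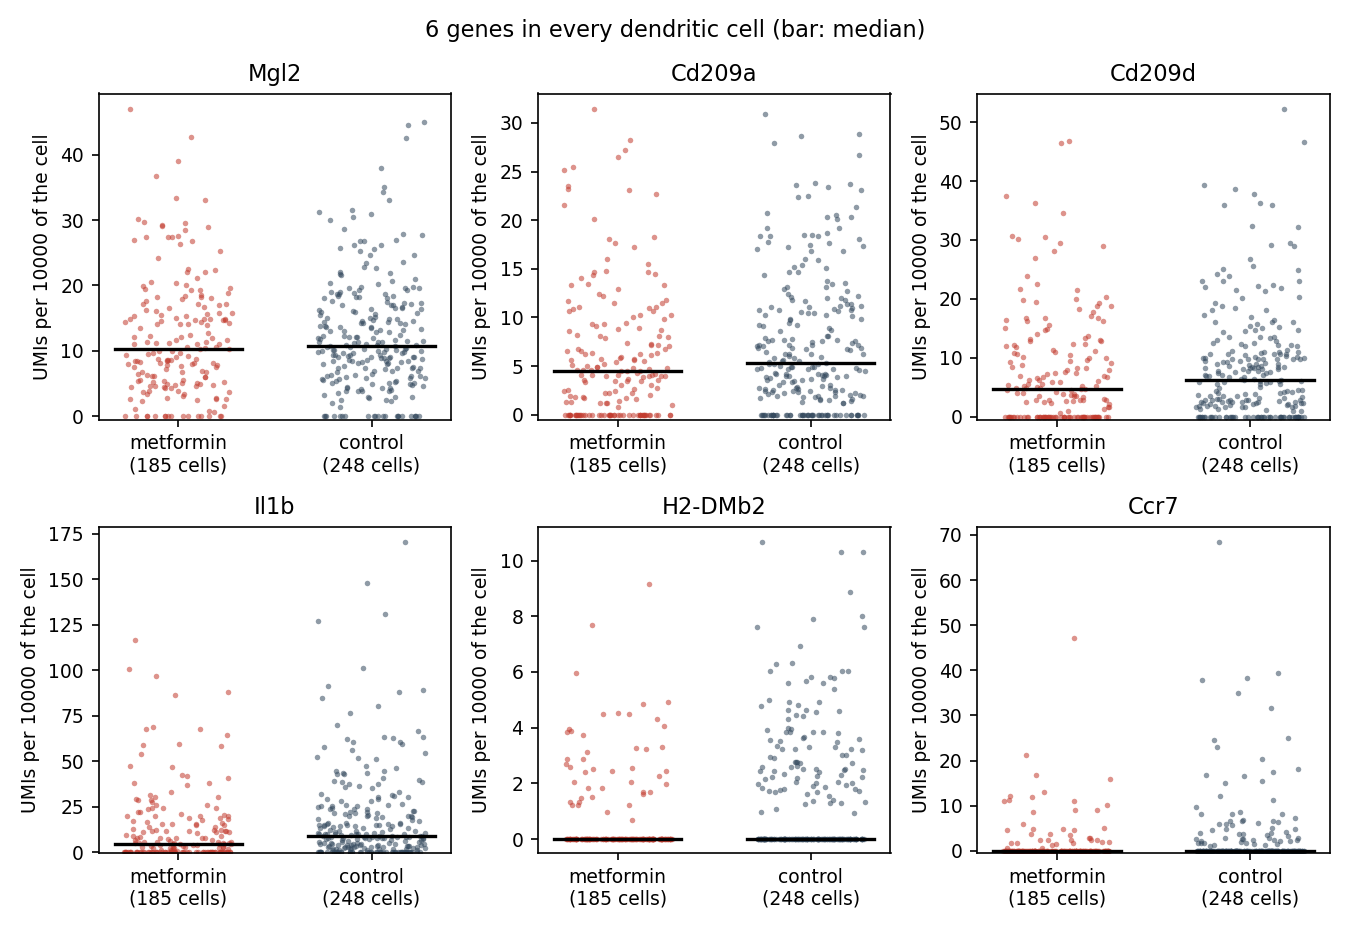
UMIs per 10000 UMIs of the cell for Mgl2, Cd209a, Cd209d, Il1b, H2-DMb2 and Ccr7 in each of 185 metformin (left) and 248 control (right) dendritic cells, with the median as a bar. The ranges of all genes overlap between the libraries, and Ccr7 and H2-DMb2 have a median of 0 in both libraries.

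The cells differed in which of the 3 lectins they held. All 3 were found in 83 metformin cells (44.9%) and 151 control cells (60.9%). Mgl2 with Cd209a only was detected in 38 metformin and 30 control cells, and Mgl2 with Cd209d only in 31 and 31. Mgl2 alone marked 17 metformin and 14 control cells, Cd209a alone 8 and 10, and Cd209d alone 1 and 4. These splits depend on depth, and the metformin dendritic cells had the lower median depth. Near the threshold, 31 metformin and 30 control cells held only 2 or 3 of the lectin UMIs, while 18 and 23 barcodes with 1 such UMI fell just outside. Of the C1q genes, 173 metformin and 231 control cells held no UMI, and 5 and 14 barcodes with 5 to 9 of them fell just outside. The 5 metformin barcodes outside carried 5652 CPM of Apoe and 12281 CPM of Ccl8, both genes of C1q macrophages, whereas metformin dendritic cells without a C1q UMI carried 274 CPM of Apoe.

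Cd209e (chr8:3847965-3854309, minus strand), which the rule did not use, lay mostly in these cells. They held 199 of its 250 UMIs in the metformin library (79.6%, interval 74.1 to 84.4) and 292 of 384 in the control library (76.0%, 71.5 to 80.2). Its level was 240 CPM in the metformin and 248 CPM in the control dendritic cells. In C1q macrophages it stood at 9.45 CPM and 43.7 CPM in the metformin and control libraries, and in Langerhans cells at 7.22 CPM and 10.1 CPM. It was thus higher in the dendritic cells than in both neighbours in each library.

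**Figure D2:**
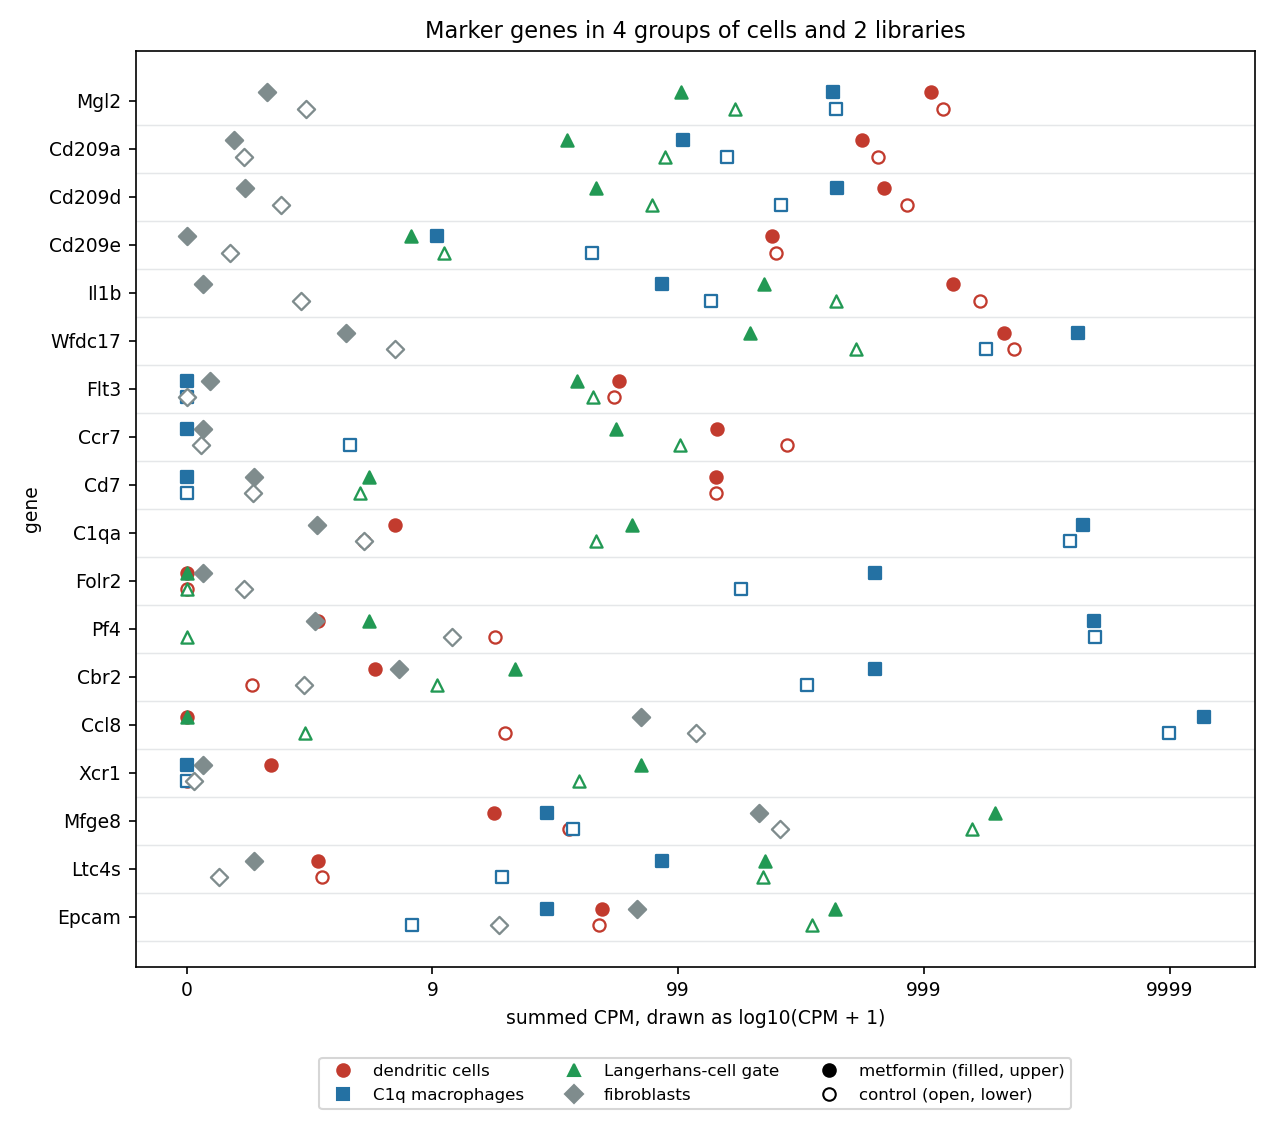
Summed CPM of marker genes, on a log10(CPM + 1) axis, in the dendritic cells, C1q macrophages, Langerhans cells and fibroblasts of the metformin (filled) and control (open) libraries. Mgl2 stood at 1071 and 1194 CPM in the dendritic cells of the metformin and control libraries, against 425 and 437 CPM in C1q macrophages and 102 and 170 CPM in Langerhans cells.

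Genes of class II presentation differed by less than 1.5-fold between the libraries, apart from H2-DMb2 and Lgmn. H2-Aa, a rule gene, had 8197 CPM in metformin and 8993 CPM in control dendritic cells. H2-Eb1, which the rule did not use, had 12188 CPM and 12196 CPM. H2-DMa, the alpha chain of H2-DM, had 1325 CPM and 1200 CPM, and H2-DMb1 had 707 CPM (587 UMIs) and 622 CPM (731 UMIs), a ratio of 1.14 (1.02 to 1.27). Of the 12 measured genes of class II presentation, 0 were at least 1.5-fold higher and 2 at least 1.5-fold lower in the metformin dendritic cells (H2-DMb2 and Lgmn, which encodes a lysosomal protease, with 27 and 62 UMIs), with a median log2 ratio of -0.01. These counts take in the 3 class II rule genes, and without them 2 of 9 were lower and 0 higher. At equal depth the log2 ratio of Lgmn was -0.42, under 1.5-fold, against -0.70 over all UMIs. Over all 6774 genes with at least 20 UMIs in the dendritic cells, 11.2% were at least 1.5-fold higher and 12.2% at least 1.5-fold lower, and the median was 0.01. The interval of the ratio lay wholly above 1 for 7.10% of them and wholly below 1 for 7.94%. The list as a whole thus lay with the background.

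H2-DMb2 (chr17:34143307-34151555, plus strand) had 55 UMIs (66.3 CPM) in the metformin dendritic cells and 170 UMIs (145 CPM) in the control dendritic cells, a ratio of 0.458 (0.332 to 0.624). It was detected in 24.3% of metformin and 43.5% of control cells. After thinning to 1500 UMIs the shares were 14.8% and 22.4%, against 0% and 0.0550% of fibroblasts, and their intervals (9.81 to 21.1 in metformin, 17.2 to 28.3 in control cells) overlapped. Summed over thinned cells the log2 ratio was -0.65, against -1.13 over all UMIs. At equal depth the difference was thus smaller, outside its counting interval and just past 1.5-fold. Its level was lower in the metformin cells in each of 5 sub-clusters of the dendritic cells, at 102, 52.4, 107, 30.1 and 43.8 CPM against 137, 198, 143, 72.1 and 164 CPM in the control cells of the same sub-clusters. These rest on 3 to 23 UMIs a sub-cluster in metformin and 13 to 68 UMIs in control cells. In Langerhans cells H2-DMb2 stood at 168 CPM in the metformin and 148 CPM in the control library. The dendritic cells held 14.0% of all H2-DMb2 UMIs of the metformin library and 30.3% of those of the control library. H2-DMb1 and H2-DMb2 shared 315 stretches of 60 bases over their transcripts, 19.5% of those of H2-DMb1 and 18.1% of those of H2-DMb2, so that reads from these stretches could not be assigned to one gene and the level of each is uncertain to that extent.

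**Figure D3:**
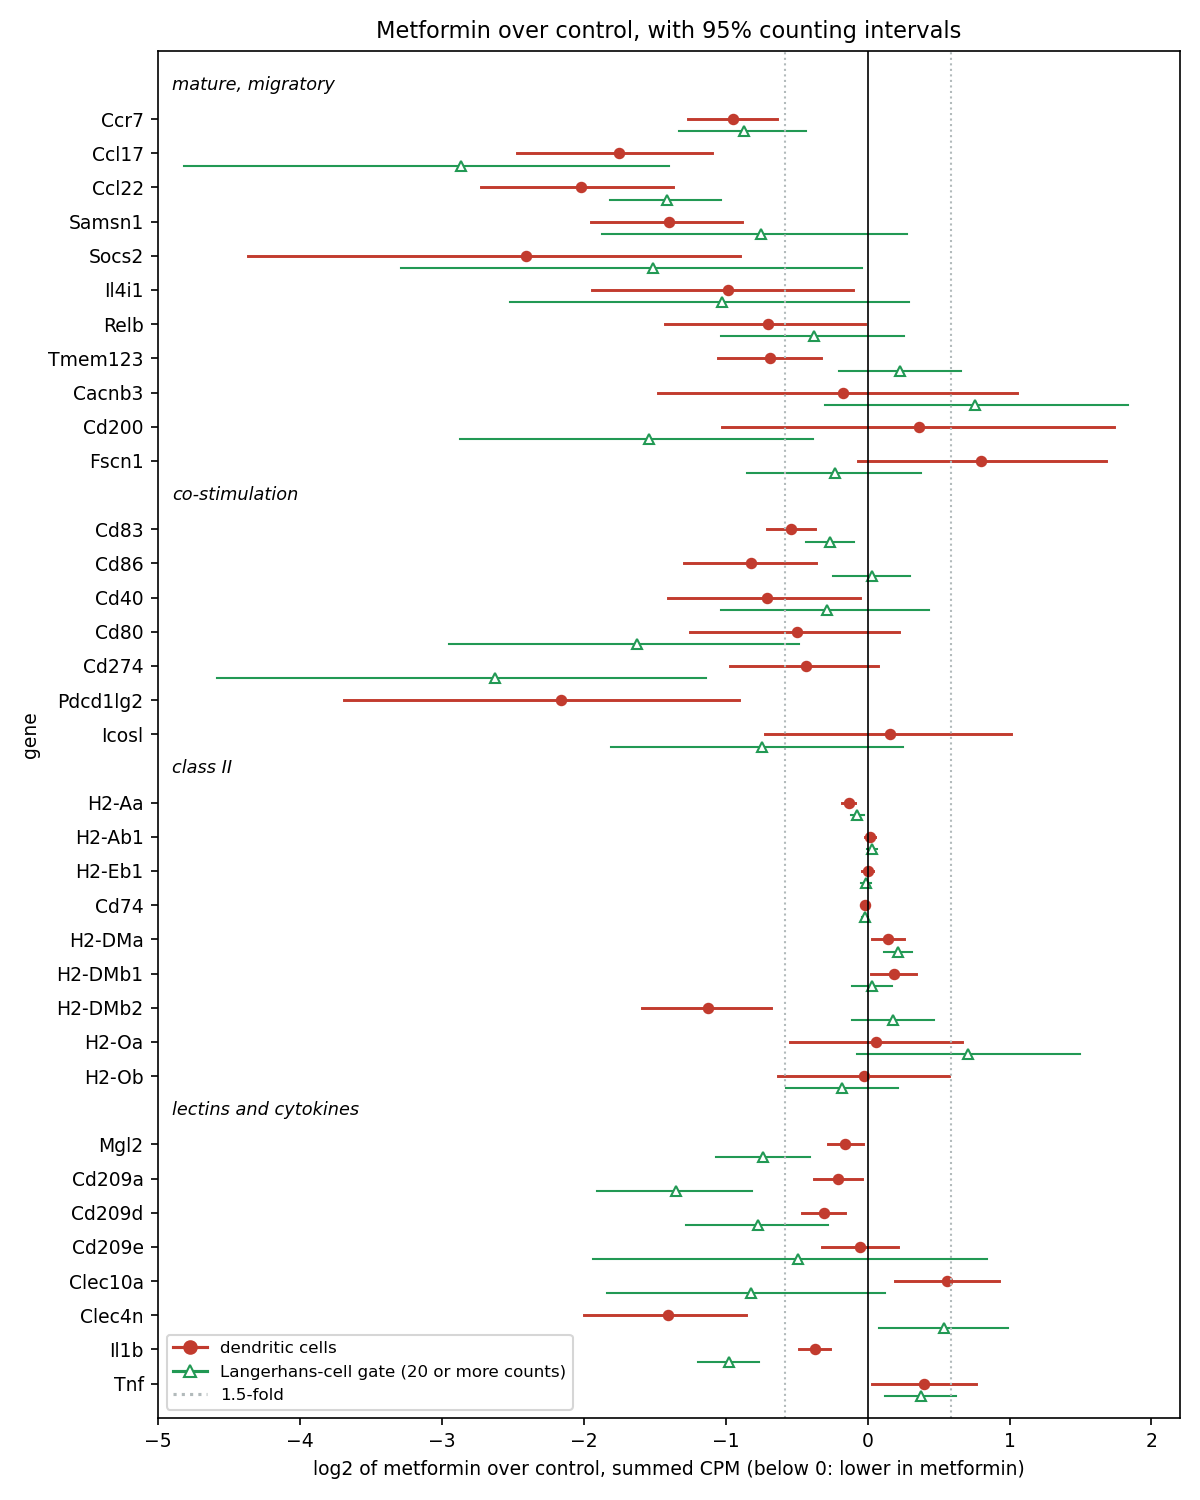
Log2 ratio of metformin over control summed CPM, with 95% counting intervals, in the dendritic cells (circles) and in Langerhans cells with at least 20 UMIs of the gene (triangles), for genes of 4 groups, with dotted lines at 1.5-fold. H2-DMb2 lies at -1.13 and H2-DMb1 at 0.19 in the dendritic cells, and most genes of the mature group lie left of 0.

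Genes of mature, migratory dendritic cells were lower in the metformin library. Of 11 measured genes of this list, 8 were at least 1.5-fold lower and 1 at least 1.5-fold higher, with a median log2 ratio of -0.95, against 12.2% and 11.2% of all genes. Summed, the list stood at 469 CPM in the metformin and 941 CPM in the control dendritic cells, a ratio of 0.498 (0.443 to 0.560). In Langerhans cells the median over 12 measured genes was also -0.95, so the difference was not particular to the Mgl2 and Cd209 cells.

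Ccr7 (chr11:99144196-99155077, minus strand) had 119 UMIs (143 CPM) in metformin and 325 UMIs (276 CPM) in control dendritic cells, a ratio of 0.519 (0.417 to 0.642). It was detected in 39 metformin cells (21.1%) and 66 control cells (26.6%). Thinned shares were 14.8% and 17.7%, against 0% and 0.0275% of fibroblasts, and their intervals overlapped. Among the cells with a Ccr7 UMI, its level was 529 CPM in metformin and 898 CPM in control cells. The lower sum thus came with a lower level in the positive cells, while the shares of positive cells were not separated at equal depth. Summed over thinned cells the log2 ratio was -0.48, against -0.95 over all UMIs, so that at equal depth Ccr7 did not reach 1.5-fold.

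Ccl17 and Ccl22, neighbours on chromosome 8, encode ligands of the T cell receptor for chemokines Ccr4. Ccl17 (chr8:94810453-94812036, plus strand) had 23 UMIs (27.7 CPM) in metformin and 110 UMIs (93.6 CPM) in control dendritic cells, a ratio of 0.296 (0.180 to 0.467). It was detected in 3.24% of metformin and 12.9% of control cells, and the highest cell held 17 and 19 UMIs. Ccl22 (chr8:94745590-94751699, plus strand) had 23 UMIs (27.7 CPM) and 132 UMIs (112 CPM), a ratio of 0.247 (0.151 to 0.386), in 5.41% and 11.3% of cells. That metformin cell held most of the metformin Ccl17. It lay in a sub-cluster with RNA of other skin cells (number 4, described with the sub-clusters), without which the log2 ratio of Ccl17 was -3.38, against -1.76 with it. The same 2 genes had ratios of 0.137 and 0.374 in Langerhans cells.

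Several other genes of the list were lower too. Samsn1, an adaptor of lymphocyte signalling, had 47.0 CPM in metformin and 124 CPM in control dendritic cells (ratio 0.378, 0.259 to 0.542). Socs2, an inhibitor of cytokine signalling, had 4 and 30 UMIs (ratio 0.189, 0.0483 to 0.536). Relb, an NF-kB subunit, had 26 and 60 UMIs (ratio 0.614, 0.372 to 0.988), and Il4i1, a secreted amino acid oxidase, had 15 and 42 UMIs (ratio 0.506, 0.261 to 0.931). Tmem123 had 112 CPM and 180 CPM (ratio 0.621, 0.482 to 0.796), while its ratio in Langerhans cells was 1.17. Fscn1, which bundles actin in dendrites, was the one at least 1.5-fold higher, with 27 and 22 UMIs (ratio 1.74) and an interval of 0.953 to 3.20 that includes 1. Cd200, with 10 and 11 UMIs (ratio 1.29), and Cacnb3, with 10 and 16 UMIs (ratio 0.885), did not reach 1.5-fold.

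The list of co-stimulatory and checkpoint molecules holds genes that give T cells their second signal and genes that restrain them. Of 9 measured genes, 4 were at least 1.5-fold lower and 0 at least 1.5-fold higher in the metformin cells, with a median log2 ratio of -0.54, against 12.2% and 11.2% of all genes, and in Langerhans cells the median was -0.52. At equal depth 1 of 6 measured genes was lower, with a median of -0.38, a count to which these shares of all genes do not apply. Cd86 had 67.5 CPM (56 UMIs) in metformin and 119 CPM (140 UMIs) in control dendritic cells (ratio 0.567, 0.408 to 0.778), and its ratio in Langerhans cells was 1.02. Pdcd1lg2, which encodes the inhibitory ligand PD-L2, had 6 and 38 UMIs (ratio 0.224, 0.0773 to 0.533). Havcr2, which encodes the inhibitory receptor TIM-3, had 20 and 56 UMIs (ratio 0.506, 0.287 to 0.856), and Cd40 had 28 and 65 UMIs (ratio 0.610, 0.377 to 0.964). Cd83, which keeps class II on the surface, had 516 CPM and 750 CPM (ratio 0.688, 0.612 to 0.773), in 66.5% of metformin and 81.5% of control cells. Thinned, Cd83 was detected in 45.0% and 61.2% of cells, against 0.149% and 0.357% of fibroblasts. Cd80 and Cd274 had ratios of 0.708 and 0.738, with intervals that include 1.

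Il1b (chr2:129364570-129371139, minus strand) encodes interleukin-1 beta, an inflammatory cytokine. Per cell it had a median of 4.80 UMIs per 10000 (0 to 116) in metformin and 9.02 (0 to 170.1) in control dendritic cells. Its sum was 1312 CPM (1089 UMIs) in the metformin and 1699 CPM (1997 UMIs) in the control dendritic cells, a ratio of 0.772 (0.717 to 0.832), less than 1.5-fold. It was detected in 62.7% of metformin and 79.4% of control cells, and after thinning in 49.7% (41.9 to 57.5) and 62.9% (56.4 to 69.2), against 0.0495% and 0.110% of fibroblasts. In cells with a Ccr7 UMI its level was 2333 CPM in the metformin and 2326 CPM in the control library, while in cells without one it was 932 CPM and 1420 CPM. The lower Il1b of the metformin library was thus seen in the cells without Ccr7. In Langerhans cells Il1b stood at 222 CPM in the metformin and 438 CPM in the control library.

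These few cells held a large part of the Il1b of the skin libraries. Although they were 1.58% and 2.15% of the kept barcodes, they carried 1089 of 2143 Il1b UMIs of the metformin library (50.8%, 48.7 to 53.0) and 1997 of 3533 of the control library (56.5%, 54.9 to 58.2). Langerhans cells carried 11.5% and 18.3%, and C1q macrophages 0.420% and 1.05%. Wfdc17 (chr11:83703991-83706268, plus strand), which encodes a small secreted protein with a whey acidic domain, had 50.9% of its metformin and 50.1% of its control UMIs in the dendritic cells. Its level was 2117 CPM in metformin and 2331 CPM in control dendritic cells (ratio 0.908, 0.855 to 0.965). The other inflammatory cytokines lay mostly elsewhere. The dendritic cells held 5.03% and 7.17% of Tnf, 0.851% and 0.378% of Il6, and 1 UMI in each library of Il23a, out of 103 and 92. No UMI of Il12b was detected in them in either library, out of 11 in the metformin and 23 in the control library.

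**Figure D4:**
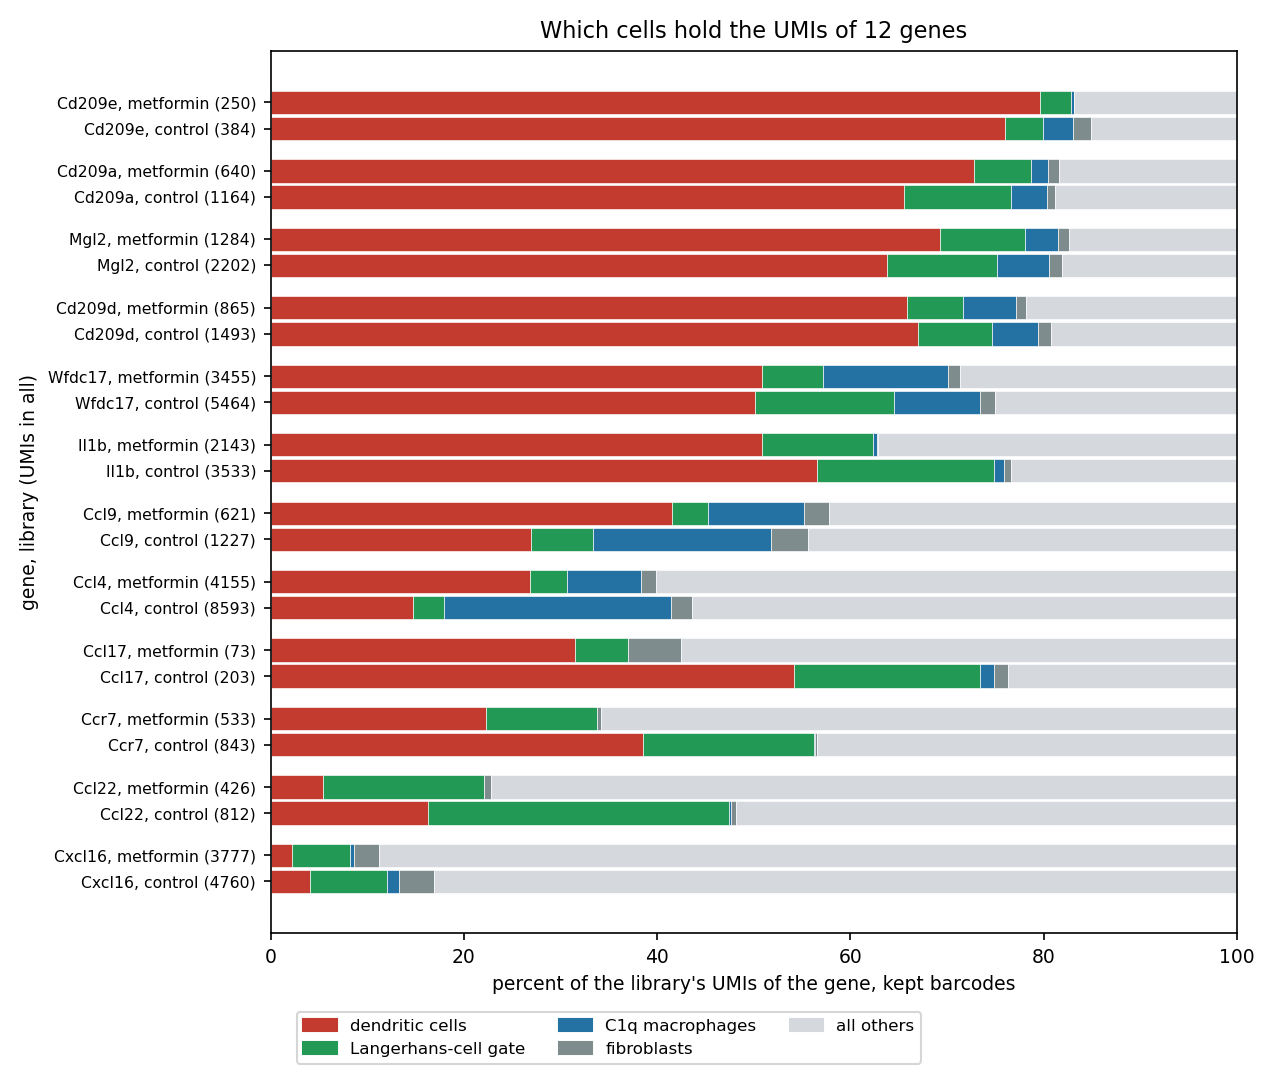
Percent of a gene's UMIs over all kept barcodes that lay in the dendritic cells, Langerhans cells, C1q macrophages, fibroblasts and all others, for 12 genes in the metformin (upper bar) and control (lower bar) library, with the UMIs in all in parentheses. The dendritic cells held 50.8% of Il1b in the metformin and 56.5% in the control library, and 31.5% and 54.2% of Ccl17.

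Of 8 measured cytokines, 0 passed 1.5-fold in either direction, with a median log2 ratio of -0.07. Tnf was higher in the metformin dendritic cells, with 121 and 130 UMIs and a ratio of 1.32 (1.02 to 1.70). Of 14 measured chemokines, 6 were at least 1.5-fold lower and 0 at least 1.5-fold higher in the metformin cells, with a median of -0.43, against 12.2% and 11.2% of all genes. At equal depth 2 of 11 were lower (median -0.32), and without sub-cluster number 4 the counts were 4 lower and 1 higher of 13 (median -0.23). The shares of all genes just given are for the main setting and do not apply to these 2 alternatives. Besides Ccl17, Ccl22 and the macrophage chemokine Ccl8 (0 and 22 UMIs), these were Cxcl16, Ccl5 and Cxcl2. Cxcl2, which attracts neutrophils, had 575 CPM in metformin and 990 CPM in control dendritic cells (ratio 0.580, 0.521 to 0.646). A single control cell held 322 of the 1164 control UMIs of Cxcl2. Cxcl16, which binds lipoproteins and Cxcr6, had 82 and 194 UMIs (ratio 0.599, 0.457 to 0.779), and Ccl5 had 55 and 152 UMIs (ratio 0.512, 0.369 to 0.702). The log2 ratio of Ccl5 was -0.42 at equal depth, under 1.5-fold, against -0.96 over all UMIs. Ccl4, an inflammatory chemokine, went the other way, with 1342 CPM in metformin and 1076 CPM in control cells (ratio 1.25, 1.15 to 1.35). Ccl3, its close relative, had 66.3 CPM and 58.7 CPM (ratio 1.13, 0.777 to 1.63).

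The place of several chemokine genes in the libraries shifted with these levels. The dendritic cells held 23 of 73 Ccl17 UMIs in the metformin library (31.5%, 21.1 to 43.4) and 110 of 203 in the control library (54.2%, 47.1 to 61.2). They held 22.3% of 533 Ccr7 UMIs in the metformin and 38.6% of 843 in the control library, and 5.40% of 426 Ccl22 UMIs against 16.3% of 812. Genes of the same families moved the other way. The dendritic cells held 26.8% of the Ccl4 UMIs of the metformin library and 14.7% of those of the control library. The shares were 28.0% and 15.6% for Ccl6, and 41.5% and 26.9% for Ccl9. These shares also depend on how many other cells with each gene a library held.

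Most C-type lectins differed by less than 1.5-fold between the libraries. Of 13 measured lectins other than the rule genes, 1 was at least 1.5-fold higher and 1 at least 1.5-fold lower in the metformin cells. This stood against 11.2% and 12.2% of all genes, and the median log2 ratio of these lectins was 0.017. The lower one, Clec4n, encodes Dectin-2, a receptor for fungal mannans. It had 41.0 CPM (34 UMIs) in metformin and 109 CPM (128 UMIs) in control dendritic cells, a ratio of 0.376 (0.250 to 0.553). After thinning it was seen in 4.73% of metformin and 13.8% of control cells, against 0% and 0.0275% of fibroblasts. In Langerhans cells its ratio was 1.45 (1.06 to 1.98), opposite in direction. The higher one, Clec4e, encodes Mincle, a receptor for fungal and mycobacterial glycolipids, and had 39 UMIs in metformin and 29 UMIs in control dendritic cells (ratio 1.90). Clec10a (chr11:70156197-70170834, plus strand), the close relative of Mgl2, had 155 CPM in metformin and 105 CPM in control cells, a ratio of 1.47 (1.14 to 1.90). Its transcripts share 211 stretches of 60 bases with those of Mgl2, 9.48% of the stretches of Mgl2, whereas Cd209a, Cd209d and Cd209e share none with each other.

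Genes of the type 2 dendritic cell list lay with the background. Of 9 measured genes 0 were at least 1.5-fold higher and 1 at least 1.5-fold lower, against 11.2% and 12.2% of all genes. Flt3 had 56.6 CPM in metformin and 53.6 CPM in control dendritic cells, and Irf4, a transcription factor of type 2 cells, had 55.4 CPM and 76.6 CPM. Klf4, which type 2 cells of the skin depend on, had 255 CPM and 364 CPM (ratio 0.701, 0.592 to 0.829). Without sub-cluster number 4, which held RNA of other skin cells, its log2 ratio was -0.17, against -0.51 with it. The one that passed was Zbtb46, a transcription factor of classical dendritic cells, with 13 and 41 UMIs (ratio 0.449, 0.221 to 0.855). Lists of immediate early genes, heat shock, NF-kB response, lysosome, glycolysis and complex I genes had medians between -0.20 and 0.19. Of 4 measured genes of AMPK, a kinase that metformin activates, Prkag2 was higher (17 and 14 UMIs) and Prkab2 lower (8 and 17 UMIs), each with an interval that includes 1. In the NF-kB list Bcl3, a regulator of NF-kB, was lower besides Relb, with 38 and 111 UMIs (ratio 0.485, 0.326 to 0.707).

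Among monocyte genes, 1 of 10 was at least 1.5-fold higher and 2 at least 1.5-fold lower in metformin dendritic cells, against 11.2% and 12.2% of all genes. The median log2 ratio was -0.04, so the list lay with the background. The higher one was Vcan, with 19 and 17 UMIs, 15 of the metformin UMIs in a single cell. Its log2 ratio was -1.98 with doublets removed, against 0.66 with them. The lower ones were Cd14 and Thbs1. Cd14, a co-receptor for bacterial lipopolysaccharide, had 101 and 253 UMIs (ratio 0.565, 0.444 to 0.715), and Thbs1, a matrix glycoprotein, 10 and 68 UMIs (ratio 0.208, 0.0956 to 0.407). With doublets removed the log2 ratio of Thbs1 was -1.25, against -2.26 with them. Lyz2, which encodes lysozyme, had 3390 CPM in metformin and 2751 CPM in control cells (ratio 1.23, 1.17 to 1.30). Of 10 interferon response genes, 3 were at least 1.5-fold higher and 1 lower, against 11.2% and 12.2% of all genes, with a median log2 ratio of 0.04. The higher ones were Rsad2 (78 and 18 UMIs, ratio 6.14, 3.64 to 10.9), Ifit1 (85 and 53 UMIs, ratio 2.27, 1.59 to 3.26) and Ifit2 (23 and 9 UMIs, ratio 3.62, 1.61 to 8.89). Single metformin cells held 40 of the Rsad2 UMIs and 42 of the Ifit1 UMIs, so the sums rest on few cells, and Rsad2 was detected in 6.49% of metformin and 3.63% of control cells. The lower one was Ifi204, with 16 and 45 UMIs (ratio 0.504, 0.266 to 0.908). As a mean over cells, the log2 ratio of Ifit1 was 0.35, against 1.18 over summed UMIs.

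The genes with the lowest metformin levels were in part those of other skin cells. Among genes with at least 100 UMIs, the 10 lowest ratios were those of Cst6, Ccl22, Col1a1, Ccl17, Dcn, Sbsn, Krt77, Dtnbp1, Clec4n and Samsn1, between 0.197 and 0.378. Col1a1 and Dcn encode matrix proteins of fibroblasts, and Sbsn and Krt77 proteins of keratinocytes. A single control cell held 174 of the 516 control UMIs of Col1a1, another 326 of the 454 of Krt77 and another 190 of the 302 of Sbsn. The fibroblast list stood at 689 CPM in metformin and 1867 CPM in control dendritic cells, against 37298 CPM and 45608 CPM in the fibroblasts themselves. Of its measured genes 8 of 8 were at least 1.5-fold lower in the metformin dendritic cells, against 12.2% of all genes. The keratinocyte list stood at 2791 CPM and 2939 CPM, with 2 of 10 genes higher and 2 lower (median log2 ratio 0.15), against 11.2% and 12.2% of all genes. With doublets removed 7 of 10 were lower and 2 higher (median -2.02), where the shares of all genes with doublets kept do not apply. The hair keratin list went the other way, with 189 UMIs (228 CPM) in metformin and 1 UMI (0.851 CPM) in control dendritic cells, 157 and 0 of these UMIs being of Krt35, of which a single metformin cell held 155. Summed levels of the marker lists of neutrophils, mast cells, B cells, T and NK cells and endothelium were between 3.61 and 68.7 CPM in the metformin cells and between 5.10 and 74.9 CPM in the control cells. The part of this other-cell RNA in the results was not tested. Without sub-cluster number 4, where it was concentrated, the log2 ratio was -0.08 for Dcn (against -1.70 with it), -0.71 for Sbsn (-1.61), -0.82 for Krt77 (-1.42), -1.54 for Col1a1 (-1.94) and -2.46 for Cst6 (-2.34), while those of Dtnbp1, Clec4n and Samsn1 were -1.78, -1.47 and -1.10. Dtnbp1, a subunit of the complex that forms lysosome-related organelles, was spread over more cells, with 26 UMIs in 11.9% of metformin and 98 UMIs in 27.4% of control cells (ratio 0.376, 0.234 to 0.584).

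The 10 highest ratios were those of Hist1h2ae, Pclaf, Tmpo, Dut, Stmn1, Hist1h2ap, Tmem208, Supt5, Zcchc7 and Gm26917, between 1.85 and 2.83. Hist1h2ae and Hist1h2ap encode histones made during DNA replication, Pclaf binds the replication clamp, Dut clears dUTP, and Stmn1 destabilises microtubules. Hist1h2ae had 204 UMIs (246 CPM) in metformin and 102 UMIs (86.8 CPM) in control dendritic cells, a ratio of 2.83 (2.22 to 3.63). Of 14 measured genes of cell division, 6 were at least 1.5-fold higher and 0 lower, with a median log2 ratio of 0.53, against 11.2% and 12.2% of all genes. At a minimum of 50 UMIs 2 of 6 were higher, with a median of 0.38, and the shares of all genes at 20 UMIs do not apply. Cells with at least 3 genes of cell division numbered 21 in the metformin library (11.4%) and 22 in the control library (8.87%), with median depths of 8082 and 7186 UMIs. Most of this signal lay in 1 sub-cluster (number 4), where Hist1h2ae had 774 CPM in the metformin and 403 CPM in the control cells and the cell division list 2392 CPM and 2086 CPM. That sub-cluster also held 12 of 12 metformin and 13 of 15 control cells marked as doublets. Its keratinocyte list stood at 9177 CPM and 13214 CPM and its fibroblast list at 2254 CPM and 8776 CPM, and the part of these in its cell division genes was not tested. Without it the log2 ratio of Dut was 0.09 and that of Gm26917 0.06, against 1.22 and 0.89 with it, while that of Hist1h2ae was 2.43, and fewer than 5 genes of the cell division list had at least 20 UMIs. The value of Hist1h2ae rests on few UMIs, since number 4 held 180 of its 204 metformin and 95 of its 102 control UMIs. Thinned to 1500 UMIs, the median of the cell division list was -0.10, with 2 of 6 genes higher, a count not set against all thinned genes.

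Clustering without the rule genes split the dendritic cells into 5 sub-clusters, each with cells of both libraries and with intervals of its share that overlapped between them. Number 1 held 62 metformin cells (33.5%) and 90 control cells (36.3%) and was led by Mmp12, a macrophage elastase, with 555 CPM against 157 CPM in the other dendritic cells, and by Flrt3, Lst1 and Cd14. Number 2 held 51 (27.6%) and 74 (29.8%) cells and was led by Rbp4, which carries retinol, with 262 CPM against 12.2 CPM, Cd7, a lymphocyte surface protein, with 450 CPM against 29.2 CPM, and Apod, a lipid carrier, with 1141 CPM against 104 CPM. Number 3 held 31 (16.8%) and 39 (15.7%) cells and was led by Ccl4, with 5006 CPM against 586 CPM, Hspa1a, Hspa1b, Isg15 and Cxcl10. Number 4 held 26 (14.1%) and 31 (12.5%) cells and was led by the keratinocyte genes Krtdap and Krt10 and the fibroblast genes Dcn and Col1a1. Number 5 held 15 (8.11%) and 14 (5.65%) cells and was led by Retnla, a secreted product of alternative activation, with 569 CPM against 2.69 CPM, Lpl, Lyz1, Ccl6, Fn1 and F13a1. Since the clusters were made from these genes, their levels describe the clusters and test nothing.

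**Figure D5:**
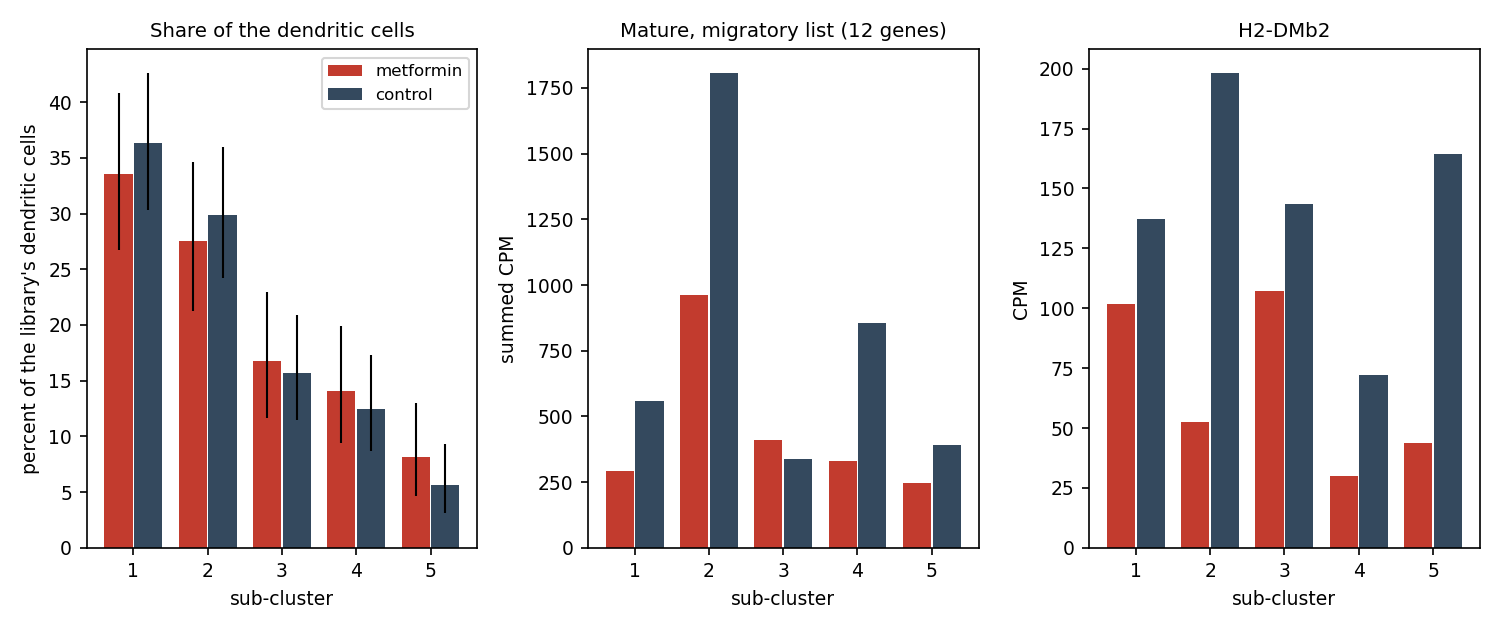
Percent of the metformin (left bars) and control (right bars) dendritic cells in each of 5 sub-clusters with exact 95% intervals, summed CPM of the mature list of 12 genes, and CPM of H2-DMb2. The intervals of the shares overlap in each sub-cluster, and H2-DMb2 is lower in the metformin cells of each.

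Sub-cluster number 2 had the highest level of several genes described above. Ccr7 stood there at 336 CPM in metformin and 592 CPM in control cells, Il1b at 1721 CPM and 2547 CPM, and Cd209e at 708 CPM and 612 CPM. The mature dendritic cell list summed to 960 CPM in metformin and 1807 CPM in control cells of number 2. In the others it stood at 292 and 558 CPM (number 1), 410 and 337 CPM (number 3), 331 and 856 CPM (number 4) and 248 and 392 CPM (number 5). It was thus lower in the metformin cells in 4 of the 5 sub-clusters and higher in number 3. Il1b in number 1 stood at 1674 CPM and 1645 CPM, so the Il1b difference was largest in CPM within number 2. Rsad2 lay in number 3, at 616 CPM in the metformin and 87.3 CPM in the control cells.

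Cd7 set apart a part of the dendritic cells, 42 metformin cells with a UMI (22.7%) and 55 control cells (22.2%). Its level was 141 CPM in both libraries. In the cells with Cd7, Cd209e stood at 446 CPM in metformin and 560 CPM in control cells, against 164 CPM and 146 CPM in the cells without it. Cd209d stood at 933 CPM and 1371 CPM with Cd7, and at 597 CPM and 680 CPM without it. The 2 lectins were thus higher in the cells with Cd7 in both libraries. The cells with a Cd7 UMI were also the deeper ones, with a median of 4878 UMIs in metformin and 5298 in control cells, against 3505 and 4255 without it.

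C1q macrophages were set beside the dendritic cells of the same library, as another class II cell of the dermis. Of 4499 genes with at least 20 UMIs in both kinds of cell together in each library, 262 (5.82%) were at least 2-fold higher and 266 (5.91%) at least 2-fold lower in the dendritic cells in both libraries. Il1b was 15.4-fold higher (8.10 to 33.8) in metformin and 12.6-fold higher (9.11 to 18.0) in control dendritic cells than in the C1q macrophages of the same library. Cd7 had 117 and 166 UMIs in the metformin and control dendritic cells and 0 UMIs in the macrophages of both libraries. Taking 3 UMIs over a library's macrophages as the floor, it was at least 4.97-fold higher in the metformin and at least 12.9-fold higher in the control dendritic cells. By the same floor, Klrd1, a lectin-like receptor of natural killer cells, was at least 6.54-fold and 12.1-fold higher. Rbp4 was at least 2.63-fold and 7.47-fold higher, and the adhesion protein gene Adam23 at least 4.38-fold and 13.7-fold higher. S100a4, a calcium-binding protein of motile cells, was 2.40-fold and 3.73-fold higher.

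Macrophage genes marked the other side. All 14 measured genes of the macrophage list were at least 2-fold lower in the dendritic cells, and the list summed to 921 CPM and 808 CPM in the metformin and control dendritic cells, against 21963 CPM and 20448 CPM in the macrophages. Pf4, a platelet and macrophage chemokine, had ratios of 0.000489 in metformin and 0.00343 in control, and Apoe, a lipid carrier, 0.0336 and 0.0261. Mrc1, the mannose receptor, which is in the lectin list, had ratios of 0.241 and 0.331. Ccl8 had 0 and 22 UMIs in the metformin and control dendritic cells, against 1459 and 2718 UMIs in the macrophages. Folr2 was at least 175-fold lower in metformin and at least 69.9-fold lower in control dendritic cells, by a floor of 3 UMIs over the dendritic cells of a library. Lysosome genes were also lower, 8 of 14 by at least 2-fold with 0 higher, and so were interferon response genes, with 7 of 8 lower. Class II genes had 6 of 12 at least 2-fold higher and 1 lower, and 4 of 9 higher and 1 lower without the rule genes, whose minimum raises the level in the dendritic cells. Those higher took in Cd74, a rule gene, at 2.37-fold in metformin and 2.41-fold in control. Clec10a, the close relative of Mgl2, was lower in the dendritic cells, at ratios of 0.265 and 0.290. Wfdc17 differed in direction between the libraries, at 0.501 in metformin and 1.30 in control.

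Against Langerhans cells, 323 of 6855 genes (4.71%) were at least 2-fold higher and 405 (5.91%) at least 2-fold lower in the dendritic cells in both libraries. The Langerhans cell gate also held cells with type 1 markers, since Xcr1 stood there at 69.5 CPM in the metformin and 38.6 CPM in the control library. Of C-type lectins, 12 of 14 were at least 2-fold higher in the dendritic cells with 0 lower, and 9 of 11 without the 3 rule genes. Against C1q macrophages more of this list was lower than higher, with 8 of 17 lower and 4 higher. Without the rule genes 8 of 14 were lower and 2 higher there. Mrc1 was 12.1-fold higher in metformin and 7.52-fold higher in control cells, and Cd209e 33.2-fold and 24.5-fold higher. Apod was 21.4-fold and 35.1-fold higher, Cd7 31.2-fold and 34.8-fold, and Sulf2, a sulfatase of the cell surface, 11.7-fold and 8.32-fold. Chemokines were at least 2-fold higher in 10 of 13 cases and lower in 1, whereas against C1q macrophages 9 of 13 were lower and 2 higher. Ccl6 was 246-fold higher than in Langerhans cells in metformin and 9.18-fold in control, where the metformin Langerhans cells held 1 UMI. Il1b was 5.91-fold and 3.88-fold higher, and Ccr7 2.60-fold and 2.74-fold higher.

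Genes of the Langerhans cell list were at least 2-fold lower in 7 of 10 cases, with 0 higher, and in 6 of 9 without Cd207, which the rules for both kinds of cell used. Mfge8, which bridges dying cells to phagocytes, had ratios of 0.00868 in metformin and 0.0223 in control, and Ltc4s, the leukotriene C4 synthase, 0.0107 and 0.0116. Itgae, the integrin CD103, which belongs to the type 1 list and not to the Langerhans cell list, had ratios of 0.0163 and 0.0153. The prostaglandin D synthase gene Hpgds had ratios of 0.0397 and 0.0399. Of class II genes, which the rule for each kind of cell required, 0 of 12 were at least 2-fold higher or lower, and 0 of 9 without the rule genes. Cd74 stood at ratios of 1.11 in both libraries, and H2-Eb1 at 1.15 and 1.14. Alternative activation genes were higher in the dendritic cells than in Langerhans cells, 7 of 9 by at least 2-fold with 0 lower. Against C1q macrophages 1 of 9 was higher and 3 were lower.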

How the data were processed

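Single-cell libraries of mouse skin were sequenced by droplets. The deposited matrices hold UMI counts per gene and barcode that the authors made with Cell Ranger 4.0.0 on mm10 (GRCm38), per the file headers and the submitters' processing notes. Other upstream settings were not given in the sources used here. A label on tissue handling named monkey organs, whereas all gene IDs were those of mouse.

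UMI counts of the dendritic cells were summed per library and scaled to CPM of their own total. Ratios of sums carry exact conditional binomial 95% intervals, shares Clopper-Pearson intervals and the difference of shares a Newcombe interval, all for counting error only. No test was made, since each agent had 1 library. Genes with at least 20 UMIs in both libraries together counted as measured, at 1.5-fold between agents and, within each of both libraries, 2-fold against C1q macrophages (C1q genes of at least 20 UMIs) or Langerhans cells. Summed UMIs over kept barcodes gave each gene's place in the library. Cells were thinned to 1500 UMIs for shares at equal depth, with fibroblasts (20 or more UMIs of Col1a1, Col1a2 and Dcn) as background. Doublets were marked by Scrublet (scanpy 1.11.5, expected rate 8%) and kept. Sub-clusters came from Leiden clustering (leidenalg 0.10.2) without the rule genes.

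Members and all 32 gene lists were chosen with earlier results of these data known. Genes were named if they were rule or marker genes, among the 10 highest or lowest ratios (at least 100 UMIs, 50 CPM and 10% of cells, without mitochondrial, ribosomal and haemoglobin genes), or among the 4 largest ratios of a list. Others (among them Cd83, Tmem123, Ccl4, Cxcl2 and Cd7) were added after their values were seen. A few genes that the rule names are not reported here. Python 3.11.15, numpy 2.4.6, scipy 1.17.1, pandas 2.3.3 and matplotlib 3.10.9 were used. The calculations were tested on simulated data. Alternatives were stricter cell filters, removal of doublets, stricter limits on keratin, C1q and lectin UMIs, 50 UMIs per gene, a mean over cells, scaling by the median ratio and thinning.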

Additional observations from a re-analysis of the deposited data

Results flagged for a closer look

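In 11 comparisons, over 10 genes, a gene's ratio of metformin to control in the dendritic cells lay beyond 1.5-fold on one side of 1 and its ratio in another kind of cell lay on the opposite side, with both intervals excluding 1. With 1 library per agent the difference between the kinds of cell was not tested.

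Against C1q macrophages, 3 interferon response genes were higher in the metformin dendritic cells and lower in the metformin macrophages. Rsad2 had a ratio of 6.14 (3.64 to 10.9) in dendritic cells and 0.630 (0.417 to 0.927) in macrophages, Ifit2 3.62 (1.61 to 8.89) and 0.273 (0.0708 to 0.759), and Ifit1 2.27 (1.59 to 3.26) and 0.610 (0.374 to 0.960). As given above, single metformin dendritic cells held a large part of the Rsad2 and Ifit1 UMIs. The log2 ratio of Ifit1 as a mean over cells was 0.35. In macrophages Ifit2 rested on 4 metformin and 38 control UMIs. Ccl8 had a ratio of 0 (0 to 0.259) in dendritic cells, from 0 and 22 UMIs, and 1.39 (1.31 to 1.48) in macrophages. Lgmn had ratios of 0.617 (0.377 to 0.984) and 1.61 (1.31 to 1.96), and at equal depth its log2 ratio in dendritic cells was -0.42.

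Against Langerhans cells, Clec4n had a ratio of 0.376 (0.250 to 0.553) in dendritic cells and 1.45 (1.06 to 1.98) in Langerhans cells, and Havcr2 0.506 (0.287 to 0.856) and 1.39 (1.08 to 1.79). Mfge8 had ratios of 0.484 (0.243 to 0.906) and 1.24 (1.17 to 1.32), the first from 14 and 41 UMIs, and at equal depth its log2 ratio in dendritic cells was 0.095. Ifit1 had a ratio of 0.296 (0.0730 to 0.900) in Langerhans cells, from 4 and 18 UMIs. The keratinocyte genes Krt77 and Krt10 had ratios of 0.374 (0.304 to 0.459) and 0.650 (0.572 to 0.738) in dendritic cells, against 1.45 (1.17 to 1.79) and 1.93 (1.64 to 2.27) in Langerhans cells. The limit on Krt5 and Krt14 applied to the dendritic cells and not to the Langerhans cells. As given above, a single control dendritic cell held most of the control Krt77 UMIs. With doublets removed the log2 ratio of Krt10 in dendritic cells was -5.12, against -0.62 with them.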

How the results depend on the processing

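No paired analysis was possible because each agent had 1 library. The lower share of dendritic cells in the metformin library (-0.57 percentage points) lay between -0.51 and -0.60 under the 7 alternatives. Genes at least 1.5-fold higher in metformin numbered 757, and 226 at a minimum of 50 UMIs, 323 after thinning and 483 without sub-cluster number 4. Lower ones numbered 827, and 342 and 452 under the first 2 of these. Each of these alternatives left fewer genes to test, so its counts cannot be set directly against 757 and 827. Lists with a median at least 1.5-fold lower numbered 2 (mature and fibroblast), and 4 with no C1q UMI allowed and 1 without sub-cluster number 4. With doublets removed the median of the keratinocyte list was at least 1.5-fold lower too. Lists with a median at least 1.5-fold higher numbered 0, and 1 under each of 4 alternatives (at most 8% mitochondrial UMIs and 3000 genes, fewer than 5 keratin UMIs, at least 4 lectin UMIs, and the mean over cells), the cell division list in each. Leaving out sub-cluster number 4 or the barcodes found in both libraries was chosen after seeing the data. The median of the mature list lay between -0.82 and -1.10 under every alternative. Among named genes whose interval excluded 1, log2 ratios that changed sign were those of Wfdc17 (0.011 as mean over cells), Apod (0.12 as mean over cells, 0.081 thinned, 0.093 without sub-cluster number 4), Mfge8 (0.095 thinned), Ctsc (0.11 thinned), Krt79 (0.17) and Mcm5 (-0.67), both without sub-cluster number 4. The cause was not tested. Of 1633 values of named genes under alternatives, 1498 stayed within their counting interval and 127 moved beyond it. These 8 changed sign from a ratio whose interval excluded 1. Under the minimum of 50 UMIs, the scaling by the median and the removal of shared barcodes, all 150 values stayed within it. Those alternatives could change a ratio little or not at all. After thinning 108 stayed, 29 moved and 3 of the 8 changed sign, and without sub-cluster number 4 the counts were 117, 27 and 3. In all, 84 changed sign, 76 of them from a ratio whose interval included 1 (15 by more than that interval).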

Other observations

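Several genes of lists not described above were measured in the dendritic cells. Alternative activation genes had 1 of 10 members at least 1.5-fold higher in metformin and 0 lower, against 11.2% and 12.2% of all genes. The higher one was Retnla, with 46 and 43 UMIs, of which single cells held 32 in metformin and 30 in control. Its log2 ratio was 0.04 at equal depth, against 0.60 over all UMIs. Of 14 lysosome genes, Cd63, a membrane protein of late endosomes, had 45 and 108 UMIs (ratio 0.590, 0.407 to 0.843, and a log2 ratio of -0.11 without sub-cluster number 4 against -0.76 with it), and the protease gene Ctsl had 16 and 41 UMIs (ratio 0.553, 0.290 to 1.01). Timd4, a receptor for dying cells that led sub-cluster number 2, had 14 and 48 UMIs (ratio 0.413, 0.210 to 0.762, and a log2 ratio of -0.18 at equal depth against -1.28 over all UMIs), and Selenop, a selenium carrier, had 152 CPM and 97.0 CPM (ratio 1.57, 1.21 to 2.03).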
